A study of Mus musculus with 2 samples.

Results

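Transcripts of 40 mitosis genes were followed in single cells of mouse bone marrow. The genes were taken by symbol from a list that runs from cyclins and their kinase to the proteins that cut the daughter cells apart, and all 40 were found among the 31053 genes of the files. They were counted as unique molecular identifiers (UMIs), each standing for 1 captured transcript, in cells with at least 2500 UMIs, at least 500 genes and at most 10% mitochondrial UMIs. No measured value was used to pick the genes, but they and the other gene lists used here were assembled with earlier results of these libraries known.

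The samples are 2 droplet libraries labelled as hematopoietic stem cells (HSCs). By the labels both came from wild-type C57BL/6J mice whose age is given as 6-8 weeks; 1 library is from naive mice without treatment (naive library) and 1 from mice sampled 6 weeks after challenge with the bacterium Listeria monocytogenes (Listeria library). The labels name no altered allele, but the deposited files of the naive library are tagged WT and those of the Listeria library KO. A difference of genotype and one of challenge cannot be told apart if that tag means a knockout, and this holds for every Listeria to naive value below. The labels also do not say whether that age refers to challenge or to sampling, how many animals were pooled, or by which markers the cells were purified. With 1 library per group there is no replicate check and no test, so every difference compares these libraries and not the conditions, and each interval (95%) covers counting error only.

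Mitosis separates copied chromosomes into daughter cells. Cyclins A and B activate the kinase Cdk1 at entry, condensins and topoisomerase II shape the chromosomes, kinetochores tie them to the spindle, and a checkpoint holds the anaphase-promoting complex until each one is attached. Destruction of the cyclins then lets the cell exit, and the central spindle directs cytokinesis through the small GTPase RhoA. In adult marrow most HSCs are out of the cell cycle, while early B-lineage, erythroid and granulocyte precursors divide often.

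Many genes of this program share promoter elements: the cell cycle homology region TTTGAA, bound by the DREAM and MuvB complexes, and the CCAAT box, bound by NF-Y. RefSeq promoter windows (GRCm38.p6, 250 bases before to 50 after the start) were found for 35 of the 40 genes. TTTGAA on either strand occurred in the windows of 27 of these 35 genes (77.1%), against 20.2% of all 27025 genes with a window. CCAAT on either strand occurred in 26 (74.3%, all genes 41.1%), and at least 2 CCAAT copies in 20 (57.1%, all genes 13.3%). Both elements together were found in 22 (62.9%, all genes 7.97%). Each string was searched without regard to the other, so matches can share bases, and a match describes the sequence without showing that a factor binds it.

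The 150 bases before the start are given for 6 genes on which the results below turn, with both elements in capitals wherever they occur on either strand. Cdk1 is the mitotic kinase (chr10:69352913-69353062, minus strand), Top2a the topoisomerase (chr11:99024190-99024339, minus strand), and Cdc20 the activator of the anaphase-promoting complex (chr4:118437344-118437493, minus strand). Hmgb2 is the most abundant of the 40 (chr8:57511693-57511842, plus strand), and Ccnb1 a cyclin whose window has no TTTGAA (chr13:100786487-100786636, minus strand). Ect2 is the gene whose part in the program was lowest in megakaryocyte-gated relative to B-lineage dividing cells (chr3:27153879-27154028, minus strand, the first of its annotated starts).
Cdk1: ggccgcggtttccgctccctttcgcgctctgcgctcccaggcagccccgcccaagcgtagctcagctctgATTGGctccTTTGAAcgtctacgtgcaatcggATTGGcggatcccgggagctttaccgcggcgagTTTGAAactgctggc
Top2a: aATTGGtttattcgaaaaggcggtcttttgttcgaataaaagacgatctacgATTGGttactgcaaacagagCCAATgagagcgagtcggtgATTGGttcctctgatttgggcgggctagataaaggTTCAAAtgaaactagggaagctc
Cdc20: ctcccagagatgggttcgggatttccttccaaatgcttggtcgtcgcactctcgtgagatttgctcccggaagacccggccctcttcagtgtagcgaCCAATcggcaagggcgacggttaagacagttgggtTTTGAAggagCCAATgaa
Hmgb2: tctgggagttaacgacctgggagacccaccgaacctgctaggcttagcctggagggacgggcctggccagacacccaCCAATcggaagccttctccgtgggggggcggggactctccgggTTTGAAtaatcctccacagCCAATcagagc
Ccnb1: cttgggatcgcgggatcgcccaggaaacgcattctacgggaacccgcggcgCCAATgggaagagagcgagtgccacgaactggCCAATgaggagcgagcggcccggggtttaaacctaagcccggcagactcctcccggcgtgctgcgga
Ect2: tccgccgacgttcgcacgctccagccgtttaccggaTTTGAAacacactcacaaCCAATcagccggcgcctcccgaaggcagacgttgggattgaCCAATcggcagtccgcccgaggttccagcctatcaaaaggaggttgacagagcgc
The closest TTTGAA lay 15 bases before the start in Cdk1, 18 in Cdc20, 23 in Top2a (on the other strand) and 30 in Hmgb2, each counted to the first base of the element.

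The libraries gave 6375 naive and 4839 Listeria cells, with medians of 6972 and 7239 UMIs per cell and totals of 64619150 and 43895966 UMIs. They hold many cells besides HSCs: Cd79a, part of the B cell receptor, had a UMI in 26.1% and 9.69% of cells. Among the HSC markers checked, detection ran from Slamf1 (4.17% and 4.63%) over Procr (17.0% and 18.2%) and Mecom (32.9% and 42.1%) to Hlf (48.8% and 56.9%). No single marker gives the share of HSCs, since Procr, an HSC surface receptor, had a UMI in only 39.9% and 35.0% of HSC-gated cells. Cells were therefore gated by summed UMIs of marker lists that contain none of the 40 genes, with thresholds set after the counts were seen; such classes are ranges of a marker sum and not cell types. The HSC gate held 1287 naive and 1200 Listeria cells, the multipotent gate 1570 and 1491, the B-lineage gate 1375 and 393, and the megakaryocyte gate 272 and 332. Within 2 UMIs of the threshold lay 1527 and 1524 cells for the HSC list, 44 and 15 for the B list and 332 and 364 for the megakaryocyte list. For the lymphoid-primed list these were 500 and 334 cells. For the multipotent genes, with a threshold of only 2 UMIs, they were 3183 and 2980, more than that gate itself held. In HSC-gated cells the median sum of the B, megakaryocyte and erythroid markers was 0 in both libraries, and in megakaryocyte-gated cells the HSC marker median was 8 and 7 UMIs. Doublets were not removed, cells past several lineage gates (159 and 100) are called mixed and kept apart, and 14 cell barcodes occur in both libraries, where 4.54 would be shared by chance.

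At least 10 UMIs summed over the 40 genes were present in 36.5% of naive cells (35.4 to 37.7%, 2330 of 6375) and in 31.9% of Listeria cells (30.6 to 33.3%, 1545 of 4839). This share is not a share of dividing cells. The most frequent sum was 5 to 9 UMIs, in 31.9% and 36.1% of cells, just under the threshold, and the next bin, 10 to 19 UMIs, held 12.7% and 15.02%. Hmgb2, Smc4, Cks2 and Tacc3 contributed 42.7% and 41.7% of all UMIs of the 40 genes. Hmgb2 had a UMI in 80.0% and 79.6% of the cells that held fewer than 3 UMIs of the other 36 genes. Without these 4 genes the share past 10 UMIs was 22.7% of naive (21.6 to 23.7%) and 16.4% of Listeria cells (15.4 to 17.5%), and 885 and 749 cells dropped below the threshold. The 4 were set aside as broadly detected, yet the 36 still hold broad genes. Outside the B lineage Cenpa, one of the 36, had a UMI in 44.0% and 49.2% of cells, against 7.34% and 9.38% for Tacc3.

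**Figure D1:**
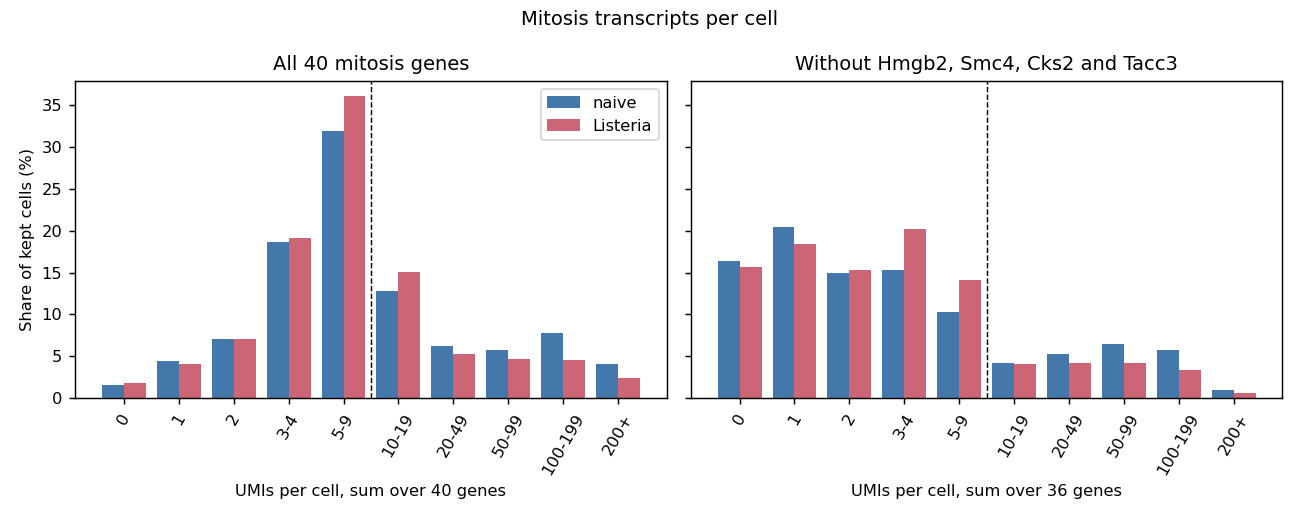
Share of kept cells (%) by their UMI sum over all 40 genes (left) and over the 36 genes left without Hmgb2, Smc4, Cks2 and Tacc3 (right), 1 bar per library; bins are of unequal width and the dashed line marks 10 UMIs. With 40 genes the bins at either side of the line, 5 to 9 and 10 to 19 UMIs, hold many cells, whereas with 36 genes 10 to 19 UMIs hold only 4.25% of naive and 4.03% of Listeria cells.

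Over the 36 genes the bins of 5 to 9 and 10 to 19 UMIs held 10.3% and 4.25% of naive and 14.1% and 4.03% of Listeria cells. Fewer cells thus lay just past the cutoff than over the 40 genes. The bins widen with the sum and do not show a gap between low and high sums. The 36-gene share is given beside the 40-gene share throughout. Cells past 10 UMIs on the 36 genes were also deeper, with a median of 10934 naive and 11887.5 Listeria UMIs against 6458 and 6850 in the rest. With each cell thinned to 2500 UMIs and 4 member UMIs required, the 40-gene share was 39.6% (naive) and 31.9% (Listeria), and the 36-gene share 22.1% and 16.4%. In barcodes with 1 to 50 UMIs, which carry free RNA, the 40 genes made up 0.231% and 0.227% of UMIs, against 0.414% and 0.283% in cells. Plasma-gated cells passed 10 UMIs on 36 genes in 1 of 46 naive cells (2.17%, 0.0550 to 11.5%) and 1 of 18 Listeria cells (5.56%, 0.141 to 27.3%). Median depths of the gate were 10371.5 and 14259.5 UMIs. The naive cell held 21 and the Listeria cell 133 UMIs of the 36 genes, so the gate cannot be taken as free of dividing cells.

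Mitosis transcripts were concentrated in B-lineage cells. At least 10 UMIs of the 40 genes were found in 85.5% of naive (83.6 to 87.3%) and 89.6% of Listeria B-lineage cells (86.1 to 92.4%), and at least 10 of the 36 in 74.5% and 83.7%. B-lineage cells made up 21.6% of naive cells and held 67.7% of all UMIs of the 40 genes, and in the Listeria library 8.12% of cells held 40.6%. Next came the erythroid gate, with only 40 and 62 cells, at 65.0% (48.3 to 79.4%) and 41.9% (29.5 to 55.2%) on 36 genes, intervals that overlap. Megakaryocyte-gated cells stood at 29.8% (24.4 to 35.6%) and 34.0% (29.0 to 39.4%), and dendritic or other antigen-presenting cells at 30.5% and 35.6%, of 95 and 45 cells.

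Stem and progenitor gates were far lower. On the 36 genes the HSC gate had 3.65% in the naive library (2.70 to 4.83%) and 4.50% in the Listeria library (3.40 to 5.83%). The multipotent gate had 4.39% (3.44 to 5.53%) and 8.79% (7.40 to 10.3%), and the lymphoid-primed gate 5.38% and 5.65%, of 316 and 124 cells. T, NK or innate lymphoid cells had 6.33% and 5.26%. All these shares fall inside the wide intervals of the few plasma-gated cells, but that gate is no measure of background. How much of each share is background was therefore not measured. On all 40 genes the HSC shares were 13.7% and 13.4% and the multipotent shares 21.7% and 28.7%. With cells thinned to 2500 UMIs, at least 4 UMIs of the 40 genes were present in 23.9% and 24.3% of multipotent cells, a difference of 0.39 percentage points against 7.05 unthinned at 10 UMIs and 3.09 unthinned at 5 UMIs; thinning changes the depth and the threshold together. On the 36 genes in thinned cells the multipotent shares were 5.67% and 8.52%.

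The neutrophil gate, like the HSC and multipotent gates, lost most of its share without Hmgb2, Smc4, Cks2 and Tacc3. On 40 genes 57.6% of naive and 45.9% of Listeria neutrophil-gated cells passed 10 UMIs, but on 36 genes 20.7% and 14.1%. There Hmgb2 alone stood at 1944 and 1611 CPM (UMIs of the gene per 1000000 UMIs of the cells), against 395 and 381 CPM in the stem and progenitor gates.

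**Figure D2:**
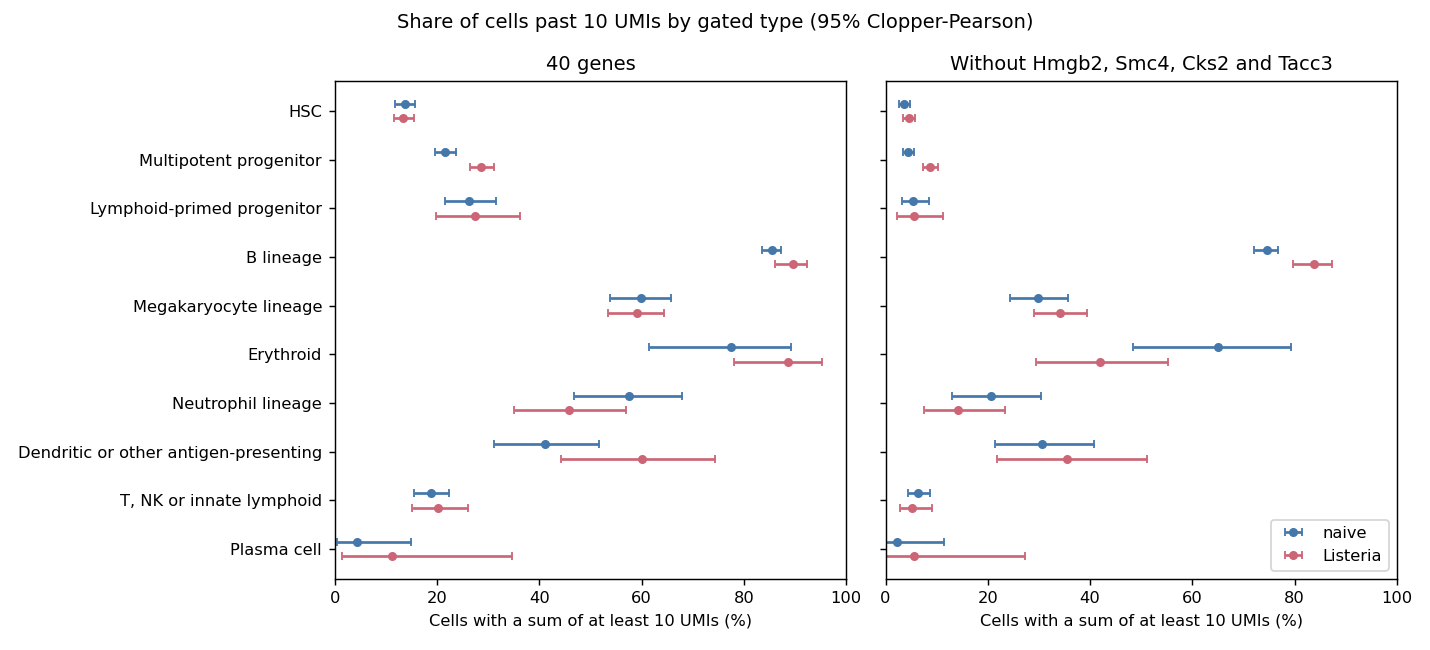
Share of cells (%) with at least 10 UMIs summed over 40 genes (left) and over 36 genes (right) in 10 gated types, 1 point per library with its Clopper-Pearson interval. B-lineage cells lie at 74.5% or above in both panels and libraries, and HSC-gated cells fall from 13.7% and 13.4% with 40 genes to 3.65% and 4.50% with 36.

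The mix of gated types differed between the libraries, and the lower overall share in the Listeria library went with it. With the Listeria shares of each type weighted by the naive mix, the Listeria library would stand at 40.2% on 40 genes, against the naive 36.5%, and at 26.1% on 36 genes, against 22.7%. On thinned cells the weighted shares were 40.7% and 25.8%. How far the mix reflects the mice, the sort or the handling was not tested.

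Levels were compared gene by gene as CPM over all cells and then within gates. These are 3' UMI counts, which are not scaled by gene length, and levels of different genes are set side by side on that scale. No member overlaps another counted gene on its own strand, and 10 overlap a counted gene on the opposite strand, among them Ccna2, Cdc20, Prc1 and Ube2c. A minimum of 10 CPM in 1 of the libraries was passed by 38 members, of which 34 were lower by over 1.2-fold in the Listeria library and 0 higher, where 11.2% of all 8183 genes passing that minimum were lower and 21.1% higher. Their median log2 ratio, Listeria over naive, was -0.54, against 0.07 over all genes. Fewer dividing cells and less RNA per cell cannot be told apart from a level over a whole library.

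Among the genes of chromosome structure, Hmgb2, a DNA-bending high mobility group protein, was at 1286 CPM (naive) and 799 CPM (Listeria), with a UMI in 86.1% and 84.2% of cells. It was high in B-lineage cells (3261 and 3331 CPM) and at 65.8 CPM (naive plasma-gated cells) or above in every other gate. Mki67, the proliferation marker Ki-67 that coats mitotic chromosomes, was at 512 and 328 CPM, a log2 ratio of -0.64 (-0.67 to -0.61). Top2a, which untangles the chromatids, was at 315 and 239 CPM, and the condensin ATPase Smc4 at 243 and 186 CPM. Mki67 differed far more between cell types than Smc4: it reached 1454 and 1537 CPM in B-lineage cells against 75.1 and 98.0 CPM in the stem and progenitor gates, where Smc4 had 541 and 581 against 102 and 114 CPM.

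The cyclins differed in how far B-lineage cells stood above the stem and progenitor gates. Ccna2, cyclin A2, was at 46.4 CPM naive and 26.1 CPM Listeria over all cells, but at 143 and 158 CPM in B-lineage and 3.89 and 4.53 CPM in stem and progenitor gates. Its log2 ratio of B-lineage over stem and progenitor cells was 5.20 and 5.12, the largest of the 40 genes in both libraries. Ccnb1, cyclin B1, had 5.16 and 4.64, and Ccnb2, cyclin B2, 3.84 and 3.27, below Mki67 at 4.28 and 3.97. Cdk1 itself was at 89.0 and 125 CPM in B-lineage cells and 6.11 and 8.64 CPM in the stem and progenitor gates. Cks2, a small subunit of the kinase, was broad instead, with a UMI in 58.2% and 53.1% of all cells and a B-lineage ratio of 1.05 and 1.40.

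The mitotic kinases and their activators were low transcripts. Plk1, polo-like kinase, was at 13.6 and 9.58 CPM and Aurka, the spindle-pole kinase, at 11.5 and 9.86 CPM over all cells. Tpx2, which activates Aurka on the spindle, was at 49.0 and 33.9 CPM, the hyaluronan-mediated motility receptor Hmmr, a spindle protein, at 38.9 and 25.2 CPM, and the spindle protein Tacc3 at 37.2 and 27.4 CPM. Of the chromosomal passenger complex, which corrects faulty attachments, the subunits borealin (Cdca8) and survivin (Birc5) were at 89.3 and 87.1 CPM (naive) and 55.6 and 52.9 CPM (Listeria). Their kinase Aurkb was at 24.8 CPM (naive) and 16.05 CPM (Listeria), the lowest of these 3 in both.

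At the kinetochore, Cenpf and the motor Cenpe were at 93.4 and 77.5 CPM (naive) and 59.9 and 56.1 CPM (Listeria), and the outer-kinetochore subunits Ndc80 and Nuf2 at 29.1 and 12.0 against 18.9 and 8.74 CPM. Cenpa, the histone H3 variant that defines the centromere, stood apart from them. It was at 148 CPM (naive) and 150.3 CPM (Listeria), with a UMI in 47.8% and 50.6% of cells. Of its UMIs, 39.2% and 54.2% fell in cells with fewer than 3 UMIs of the other 35 genes of that sum, so Cenpa was broad too, although it is among the 36. Its log2 ratio between the libraries was 0.03 (-0.02 to 0.08), the highest of the 40, and its B-lineage ratio over stem and progenitor cells 0.79 and 0.57, the lowest. In the lymphoid-primed gate Cenpa was at 239.6 CPM (naive) and 197 CPM (Listeria), against 224 and 232 CPM in B-lineage cells, although the 36-gene shares of that gate were only 5.38% and 5.65%. Free RNA held 127 and 107 CPM of Cenpa, and plasma-gated cells 6.37 and 25.2 CPM.

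The checkpoint kinases Bub1 and Ttk and the inhibitor Bub1b were at 22.9, 8.04 and 31.4 CPM in the naive library, all below 0 in their log2 ratio (-0.60, -0.66 and -0.61). Genes that work with ubiquitin ligases at mitotic entry or exit differed among themselves. The ubiquitin-conjugating enzyme Ube2c was at 90.6 and 51.7 CPM (log2 -0.81, -0.89 to -0.73), and Cdca3, which helps to degrade a mitosis inhibitor, at 46.1 and 25.9 CPM (-0.83, -0.94 to -0.72). Ccna2 was equally low at -0.83 (-0.94 to -0.72). Cdc20 was at 34.8 and 24.4 CPM, a smaller difference of -0.51.

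Among the motors and microtubule proteins, Kif11, which pushes the spindle poles apart, was at 80.1 and 48.6 CPM, Nusap1 at 57.2 and 41.2 and the motor Kif15 at 50.5 and 35.0 CPM. Of the central spindle genes, the motor Kif23 was at 66.2 and 45.0 CPM and the microtubule bundler Prc1 at 63.5 and 44.8 CPM. Kif20b, a motor of late mitosis, was at 46.6 and 46.0 CPM and with -0.02 (-0.11 to 0.07) the second highest ratio, before Aurka at -0.23 (-0.41 to -0.04). The scaffold Anln was at 21.7 and 15.3 CPM and Ect2, the exchange factor that activates RhoA at the cleavage site, at 17.6 and 10.4 CPM.

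**Figure D3:**
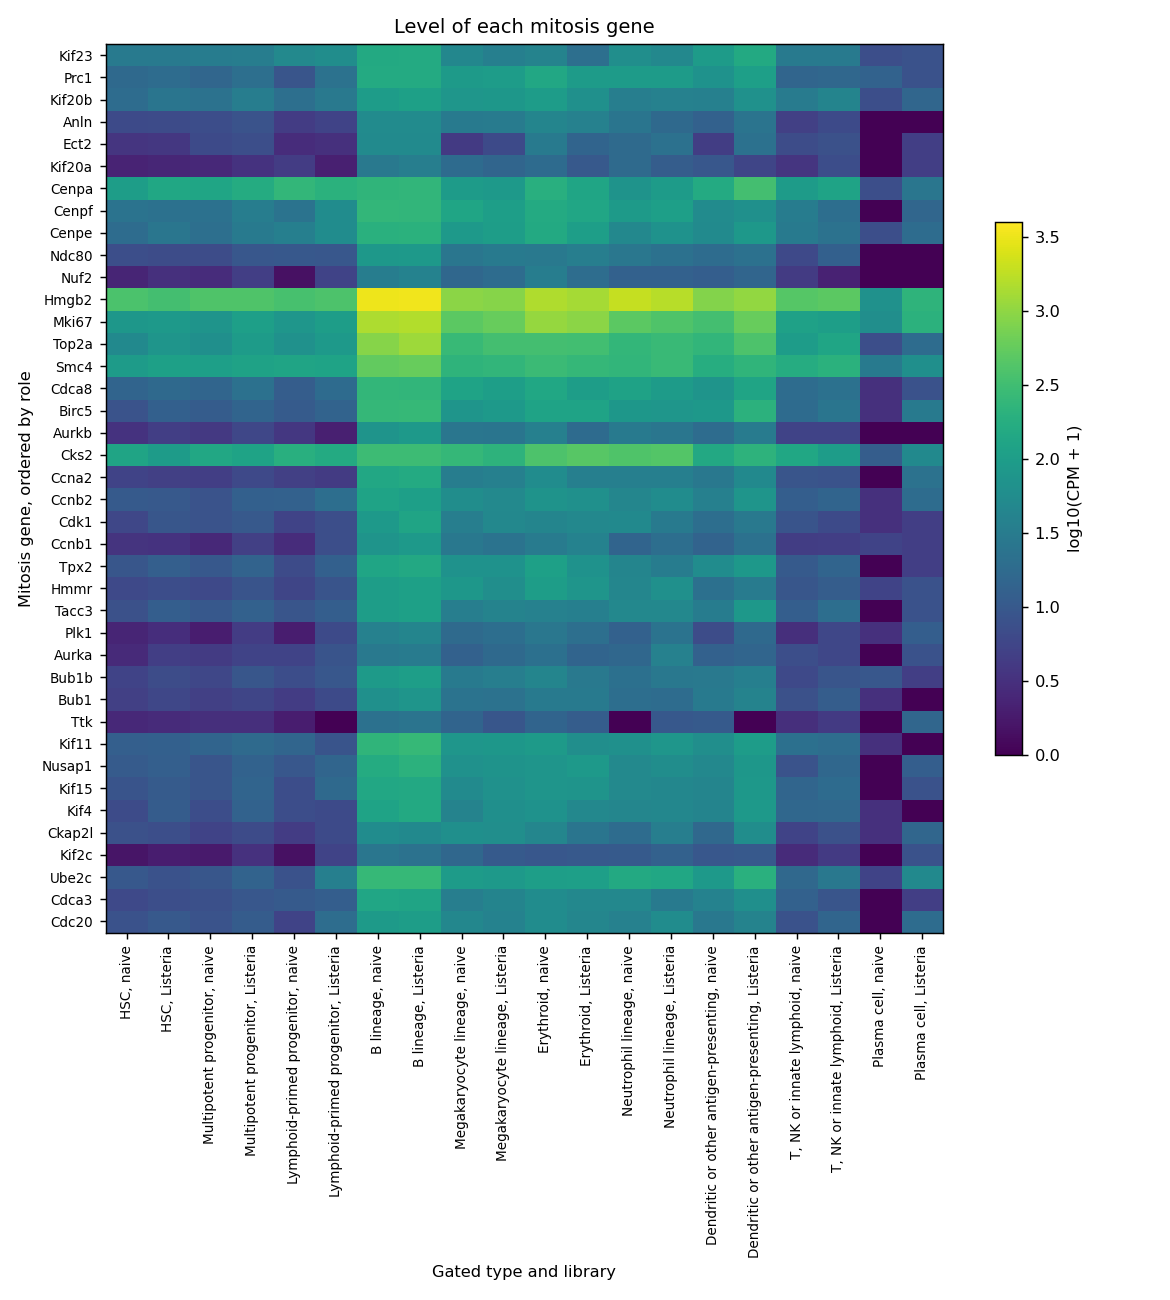
Level of each of the 40 genes (rows, ordered by role) in 10 gated types of each library (columns), as log10(CPM + 1). The B-lineage columns are brightest for nearly every row, Hmgb2, Cks2, Smc4 and Cenpa stay bright across the stem and progenitor columns, and Ect2 is about as dark in the megakaryocyte columns (3.08 and 5.40 CPM) as in the HSC columns (2.65 and 2.77 CPM).

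Within gates the direction of the library difference varied, and in most it was not that of the whole libraries. In B-lineage cells all 40 genes passed 10 CPM, with a median log2 ratio of 0.12 (all genes 0.03). There 6 were higher by over 1.2-fold in the Listeria library and 0 lower, against 12.3% and 9.49% of all genes. The largest differences were Cdk1 at 0.49 (0.33 to 0.64) and Top2a at 0.39 (0.34 to 0.44), while Ube2c (-0.04) and Birc5 (0.01) hardly differed. In all cells except the B lineage, 30 members passed and their median was 0.14 (all genes 0.09), with 6 higher and 0 lower against 22.6% and 9.22%, so the share of members past the fold was near that of all genes.

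In the multipotent gate the members were higher in the Listeria library. Of the 22 with at least 10 CPM, 18 were higher by over 1.2-fold and 0 lower, where 28.0% of all genes were higher and 8.36% lower, and their median was 0.55 against 0.11 for all genes. Mki67 had 843 naive UMIs (71.5 CPM) and 1297 Listeria UMIs (106 CPM), which is 0.57 on the log2 scale (0.45 to 0.70). Top2a was at 60.4 and 93.1 CPM (0.62, 0.49 to 0.76) and Cenpa at 132 and 164 CPM (0.32, 0.22 to 0.42). Hmgb2 was at 410.3 and 409.7 CPM, and Cks2 lower at 144 and 121 CPM (-0.25, -0.35 to -0.15). DNA replication genes differed alongside: 18 of the 24 measured were higher and 1 lower, median 0.52, against the same 28.0% and 8.36% of all genes.

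HSC-gated cells gave a smaller and less stable difference. There 18 members passed 10 CPM, 8 were higher and 1 lower, against 29.3% and 10.2% of all genes, with a median of 0.24 (all genes 0.10). Mki67 was at 79.2 and 85.2 CPM (0.11, -0.05 to 0.26), Top2a at 50.03 and 74.8 CPM (0.58, 0.40 to 0.76), and Hmgb2 at 383 and 337 CPM (-0.18, -0.26 to -0.11). Without mixed cells and the 5% of cells with the most UMIs the median turned to -0.20, over 13 members, 4 higher and 6 lower.

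Megakaryocyte-gated cells split both ways, with 6 of 39 members higher and 7 lower (all genes 21.2% and 15.8%, member median 0.07). In the lymphoid-primed gate 15 of 22 members were higher and 2 lower (all genes 34.0% and 20.6%). Only 8 naive and 3 Listeria cells of that gate held at least 20 UMIs of the 36 genes, 377 and 390 UMIs together. Members counted in the same few cells are not separate observations. In T, NK or innate lymphoid cells 14 of 26 were higher and 4 lower (all genes 23.2% and 20%), with 20 and 10 such cells. In neutrophil-gated cells 13 of 39 were higher and 11 lower (all genes 39.3% and 26.8%), and in cells past no gate 8 of 13 were higher and 2 lower (all genes 34.9% and 26.0%). Over the 3 stem and progenitor gates combined, 17 of 22 were higher and 1, Cks2, lower (all genes 26.4% and 7.54%), with a median of 0.47. Mixed cells went the other way, with 23 of 38 members lower and 2 higher (all genes 21.4% and 27.7%).

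Erythroid-gated cells, 40 naive and 62 Listeria, also went the way of the whole libraries. Of 39 members 22 were lower and 2 higher, at a median of -0.36, where 33.2% of all genes were lower and 29.4% higher. Dendritic or other antigen-presenting cells, 95 and 45, had 34 of 37 members higher and 0 lower at a median of 0.72, where 29.6% of all genes were higher and 33.6% lower. Both gates were added to these counts after their values were seen, and gates with fewer than 40 cells in a library were left out.

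**Figure D4:**
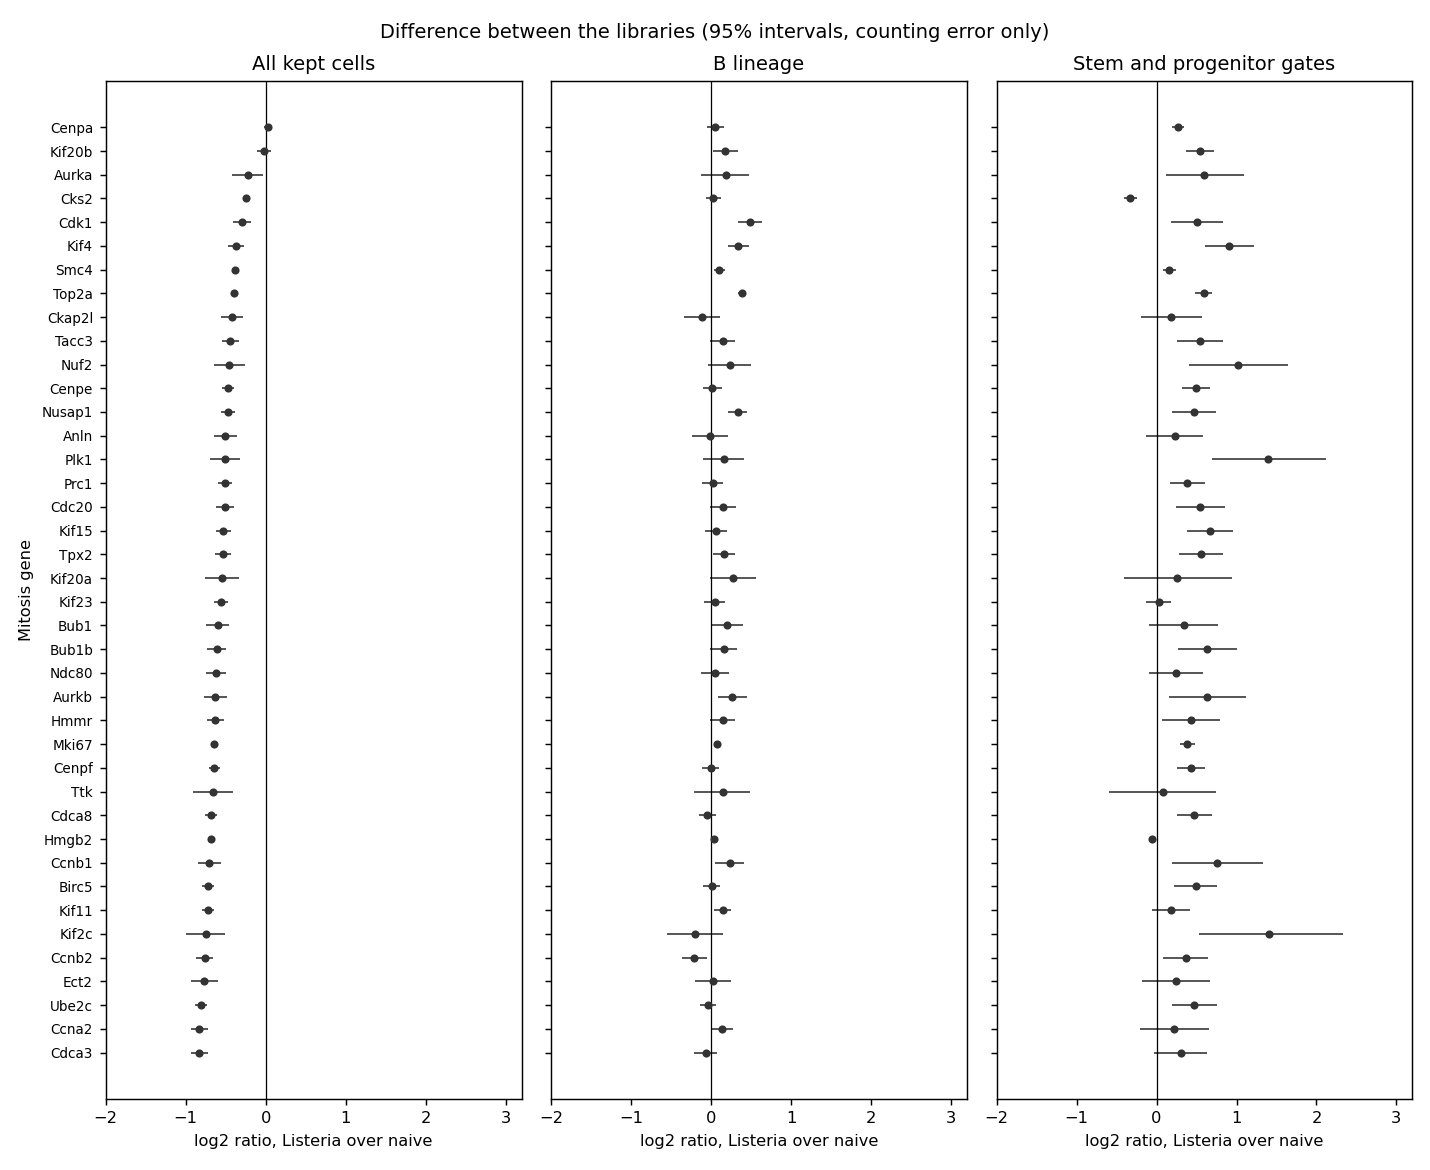
Log2 ratio of each of the 40 genes, Listeria over naive, in all kept cells, B-lineage cells and the stem and progenitor gates together, with 95% intervals for counting error; genes are ordered by their ratio in all cells. In all cells 39 of 40 points lie below 0, in B-lineage cells 32 of 40 lie above 0, and in the stem and progenitor gates Cks2 and Hmgb2 are the only points below 0.

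Lists beyond the 40 genes gave the same pattern of signs in the whole libraries. Of 36 further mitosis genes, 31 passed 10 CPM, of which 22 were lower and 1 higher (median -0.42), where 11.2% of all genes were lower and 21.1% higher. Of 32 DNA replication genes all passed, 21 lower and 0 higher (median -0.35). Among 11 cell cycle brakes 6 were lower and 0 higher (median -0.29), and in the multipotent gate, where mitosis and replication genes were higher, 5 of 10 brakes were lower and 1 higher (median -0.26), against 8.36% and 28.0% of all genes.

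Across cells thinned to 2500 UMIs, Mki67 followed the sum of the other members most closely, with Pearson's r of 0.79 over 6375 naive and 0.72 over 4839 Listeria cells. Top2a had 0.72 and 0.63 and Hmgb2 0.71 and 0.58, while Ttk had 0.21 and 0.21 and Cenpa 0.22 and 0.11. These values move with abundance, since a gene rarely counted cannot correlate strongly, but Cenpa is among the more abundant of the 40. In stem and progenitor gates Mki67 still had 0.43 and 0.47 and Cenpa 0.05 and 0.01. Of 5323 other genes, those that tracked the sum of the 40 most closely were the histone genes Hist1h3c (0.71 and 0.64), Hist1h1b (0.68 and 0.61) and Hist1h2ae (0.67 and 0.56), followed by Pclaf, a partner of the replication clamp (0.63 and 0.55). Histone genes are near-identical copies whose reads may be split among them. B-lineage genes (Vpreb3, Vpreb1, Cd79a and Ebf1) were also among the 15 highest, and Malat1 (-0.52 and -0.42) and Ctla2a (-0.46 and -0.37) were the lowest. All these cells share a library, and B-lineage cells are common among the high ones.

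Replication and mitosis transcripts met in the same B-lineage cells. At 2500 UMIs per cell, at least 4 UMIs of both the 36 mitosis and the 32 replication genes were found in 65.7% of naive (63.1 to 68.2%) and 77.9% of Listeria B-lineage cells (73.4 to 81.9%). Mitosis transcripts without replication transcripts were found in 6.11% and 3.82%. In megakaryocyte-gated cells, replication without mitosis was as common or more so, at 36.03% and 27.7%, than both together, at 16.9% and 24.1%. The same order held in the stem and progenitor gates. HSC-gated cells had both in 1.24% (16 of 1287, 0.712 to 2.01%) and 2.83% (34 of 1200, 1.97 to 3.94%), and replication without mitosis in 8.31% and 8.67%. Multipotent cells had both in 2.55% and 3.49% and replication alone in 9.94% and 15.4%, and lymphoid-primed cells 3.48% and 0.806% against 9.18% and 14.5%. Unlike in the B lineage, mitosis without replication was also above both together in each stem and progenitor gate. It was found in 2.56% and 3.17% of HSC-gated, 3.12% and 5.03% of multipotent and 5.70% and 11.3% of lymphoid-primed cells. In megakaryocyte-gated cells it was below both together, at 8.09% and 7.53%.

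Within dividing cells, taken as those with at least 20 UMIs of the 36 genes, the members differed in how they went with replication transcripts. B-lineage dividing cells (879 naive and 295 Listeria) were split at the median of their replication transcripts per UMI. The split point uses none of the 40 genes, but the cells were chosen by their UMIs of the 36. A cell low in replication transcripts thus entered only with at least 20 UMIs of these genes. How far this choice shapes the differences below was not tested. The replication-low cells had more member UMIs in all, with a summed level of the 36 genes of 9539 against 6573 CPM (naive) and 9477 against 6506 CPM (Listeria). Ube2c, which starts the destruction of cyclins, was at 107 CPM in the replication-high and 562 CPM in the replication-low naive cells, and at 75.4 and 503 CPM in the Listeria cells. Its log2 ratio, low over high, was 2.39 (2.26 to 2.52) and 2.74 (2.46 to 3.02).

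Cdc20 had 2.02 and 2.70, Ccnb2 1.94 and 1.71, Cenpa 1.62 and 1.68, and Cenpf 1.53 and 1.94. Mki67, at 0.04 and 0.04, and Top2a, at -0.08 and -0.10, were as high in replication-high as in replication-low cells, and Ccna2 lay between at 0.41 and 0.30. Outside the B lineage (295 and 306 dividing cells) Ube2c again led with 2.06 and 2.40, followed by Cdc20 (1.97 and 1.83), and Top2a stood at 0.00 and 0.14. Among dividing cells Cenpa therefore went with Cdc20 and Ccnb2, although it was also detected in cells with few other members.

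The make-up of the program differed between dividing cells of different gates, and most at Ect2 between the megakaryocyte and B-lineage gates. Each member was expressed relative to the 36-gene sum, which contains it unless it is Hmgb2, Smc4, Cks2 or Tacc3, in dividing cells, so that the number of dividing cells and the strength of the program drop out. Dividing B-lineage cells held 660 UMIs of Ect2 over 879 naive cells and 204 over 295 Listeria cells (64.8 CPM, 59.9 to 69.9, and 60.4 CPM, 52.4 to 69.3). In dividing megakaryocyte-gated cells it had 9 UMIs over 61 naive cells (10.7 CPM, 4.91 to 20.4) and 15 over 96 Listeria cells (10.97 CPM, 6.14 to 18.1). A UMI of Ect2 was found in 13.1% and 13.5% of these cells, against 45.7% and 43.4% of dividing B-lineage cells, although the megakaryocyte-gated cells were deeper (medians 14166 and 13907.5 against 10884 and 10859 UMIs).

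Relative to the 36-gene sum, Ect2 in megakaryocyte-gated over B-lineage cells stood at a log2 ratio of -2.53 (naive, -3.66 to -1.59) and -2.13 (Listeria, -2.99 to -1.37), the lowest of the 40 in both. The next lowest values were Hmgb2 (-0.73) in the naive and Kif23 (-0.85) in the Listeria library. Dividing stem and progenitor cells were at 34.6 and 31.3 CPM of Ect2. Their ratios against the B lineage were -0.32 (-0.90 to 0.20) and -0.41 (-0.94 to 0.08), with intervals that include 0. The gates in this pool differed: its multipotent cells, 42 naive and 62 Listeria, stood at 0.12 (-0.56 to 0.73) and 0.04 (-0.53 to 0.57). Erythroid-gated dividing cells were at 41.1 and 32.4 CPM over 21 and 17 cells. Low values were not limited to the megakaryocyte gate. Dividing dendritic or other antigen-presenting cells stood at -2.39 (-5.44 to -0.54) in the 24 naive cells, with 2 UMIs, but at -0.25 (-1.48 to 0.75) in the 13 Listeria cells, and HSC-gated ones at -0.84 (-2.06 to 0.15, 26 naive cells) and -1.79 (-3.42 to -0.54, 33 Listeria cells, 5 UMIs). Ect2 was singled out after its values were seen, so this is a description of both libraries and not a test.

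The other 5 members with a role in the central spindle and cytokinesis were spread to both sides. Relative to the sum, in megakaryocyte-gated over B-lineage cells, Prc1 was at 0.53 and 0.71, Kif20b at 0.90 and 0.72, Kif20a, a motor of the same stage, at 0.75 and 0.15 and Anln at 0.30 and 0.44, while Kif23, the motor that brings Ect2's partner to the central spindle, was lower at -0.46 and -0.85. On the CPM scale, Racgap1, that partner, was at 135 and 105 CPM in megakaryocyte-gated against 130 and 124 CPM in B-lineage dividing cells. The RhoA exchange factor Arhgef2 was at 147 and 143 CPM against 54.6 and 57.5 CPM, the citron kinase gene Cit at 130 and 118 against 75.3 and 81.8 CPM, and Rhoa itself at 383 and 387 against 532 and 526 CPM. These 4 genes outside the 40 were chosen after the values of Ect2 were seen. At the other end stood Ckap2l, a spindle protein, at 1.29 (1.02 to 1.56) and 1.56 (1.26 to 1.85), and Hmmr at 1.13 and 0.64.

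The low level of Ect2 was present at each other setting tried. These settings draw on overlapping cells, with the same 9 naive UMIs of Ect2 at each 36-gene cutoff, so they are not separate observations. With the 36-gene sum at 10 or 50 UMIs the ratio was -2.59 and -2.43 (naive) and -2.08 and -1.97 (Listeria). With at least 10 megakaryocyte marker UMIs it was -2.95 over 44 cells and -2.26 over 69 cells. Without the 5% of cells with the most UMIs it was -2.58 and -2.31, over 6 and 7 UMIs of Ect2, and with gates on depth-scaled UMIs -2.89 and -2.44. The few UMIs set the width of these intervals, and mixed cells, which may be doublets, are not in them.

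**Figure D5:**
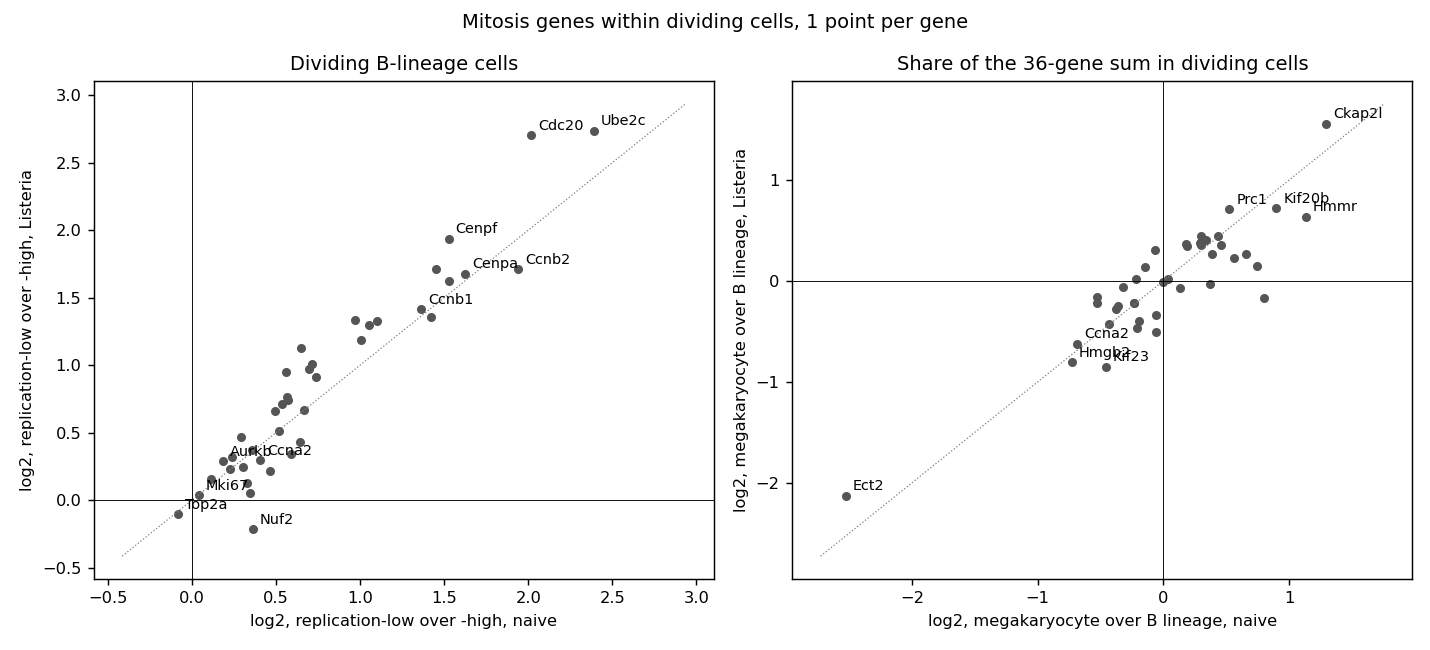
Each point is 1 of the 40 genes, the naive library on the horizontal and the Listeria library on the vertical axis; the dotted line marks equal values. Left, log2 ratio of replication-low over replication-high dividing B-lineage cells, with Ube2c (2.39 and 2.74) farthest out and Top2a near 0; right, log2 ratio of each gene's part in the 36-gene sum, megakaryocyte-gated over B-lineage dividing cells, with Ect2 (-2.53 and -2.13) apart from the rest.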

How the data were processed

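The labels' protocols describe flushed marrow of the leg bones, red cell lysis and a droplet kit that reads transcript 3' ends. The submitters' processing notes name Cell Ranger 3.0.2 and the mm10 build; settings are not given in the sources used here. The authors deposited unnormalized UMI counts, 1 matrix per library over 6794880 barcodes. The files carry the tags WT (naive) and KO (Listeria) while the labels call both wild type; the labels were followed.

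Cells needed at least 2500 UMIs, 500 genes and at most 10% mitochondrial UMIs, which removed 9 and 17 barcodes for genes and 216 and 54 for mitochondrial UMIs. The kept cells held 78.6% and 89.4% of the UMIs. No doublet caller was run. Gates were disjoint sums of raw marker UMIs: B lineage 10, megakaryocyte 5, erythroid 5, granule-enzyme myeloid 20, neutrophil 20, plasma 30, T or NK 15 or innate lymphoid 8, dendritic 20 and basophil or mast 8. Remaining cells were lymphoid-primed (sum of at least 5 and above the HSC sum), then multipotent (Cd34, Flt3 and Cd48, at least 2), then HSC (at least 5). The basophil and granule-enzyme gates held 10 and 11 naive and 8 and 26 Listeria cells, with 40-gene shares of 50% and 63.6% and of 50% and 76.9%. Cells past no gate (581 and 727) had 7.75% and 14.7%.

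Levels are CPM with exact Poisson intervals, shares have Clopper-Pearson intervals and log2 ratios exact intervals from the binomial split of 2 counts. UMIs mark molecules, and all intervals cover counting error only. Members were called past a fold of 1.2 among genes that reached 10 CPM in 1 of the libraries. Named were up to 3 members per role by UMIs, the 3 highest and 3 lowest ratios, and the 15 highest and 10 lowest tracking genes, of which the leading ones are printed. The members and lists were chosen with earlier results of these data known. Alternatives used factors from edgeR 4.0.16 and DESeq2 1.42.0 in R 4.3.3; the rest was done in Python 3.11.15 with numpy 2.4.6, scipy 1.17.1 and pandas 2.3.3. The interval and thinning code was tested on simulated data. Promoter sequences are RefSeq's, and gene positions GENCODE's.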

Additional observations from a re-analysis of the deposited data

Results flagged for a closer look

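The members' library difference pointed in opposite directions in different gated types. Their median log2 ratio, Listeria over naive, was -0.36 in erythroid-gated cells, whereas it was 0.55 in the multipotent gate, 0.47 in the lymphoid-primed gate, 0.72 in dendritic or other antigen-presenting cells and 0.31 in T, NK or innate lymphoid cells. With 1 library per group the difference between these types was not tested, and the erythroid values come from 40 and 62 cells. Cells with at least 20 UMIs of the 36 genes were few: 8 naive and 3 Listeria in the lymphoid-primed gate. They numbered 24 and 13 in the dendritic or other antigen-presenting gate and 20 and 10 in the T, NK or innate lymphoid gate.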

How the results depend on the processing

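No paired analysis was possible because each group is 1 library and the labels give no replicate numbers. For the share of cells past 10 UMIs (36.5% naive, 31.9% Listeria), a sum of at least 5 UMIs gave 68.4% and 68.0% and at least 20 UMIs 23.8% and 16.9%. Thinned cells with at least 4 UMIs gave 39.6% in the naive library, cells with at least 5000 UMIs 43.2% and 35.4%, at most 5% mitochondrial UMIs 40.1% in the naive library, and leaving out mixed cells and the deepest 5% gave 33.2% and 28.4%. Without Hmgb2, Smc4, Cks2 and Tacc3 the shares were 22.7% and 16.4%. The Listeria minus naive difference of -4.62 percentage points was -0.42 at 5 UMIs, -6.91 at 20 UMIs, -7.70 on thinned cells, -7.83 with 5000 UMIs and -6.87 with 5% mitochondrial UMIs.

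In the multipotent gate the difference of 7.05 points was 3.09 at 5 UMIs, 3.52 at 20 UMIs and 0.39 on thinned cells. In the B lineage the difference of 4.04 points changed sign to -0.76 at 5 UMIs (interval -4.06 to 2.03) and was 7.71 at 20 UMIs and 9.17 without the 4 genes. The median log2 ratio of the members in all cells, -0.54, was -0.67 without mixed cells and the deepest 5%, and in the HSC gate 0.24 turned to -0.20 there. The Listeria share at the naive mix of types was 40.2%, and 26.1% without the 4 genes. The cause of these shifts was not tested, except that stricter or fewer-gene sums lower a share by construction. The other 93 values of these summaries stayed within the counting interval of the value reported. Other scalings moved the ratio of a single member by at most 0.13 in all cells, and under edgeR and DESeq2 factors Cenpa came below 0 with the other 39. Gates on depth-scaled UMIs, the alternatives for Ect2 and the 36-gene weighting were added after seeing the data. Depth limits the gates with few cells, such as the erythroid gate (40 and 62), through wide counting intervals.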
